A study of Mus musculus with 12 samples.

Results

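Transcripts of 9 genes that receive, make or clear steroid hormones were examined in mouse liver, taken by gene name from the 57180 genes of the deposited tables. They are the receptors Esr1 and Nr3c1, the sex steroid enzymes Srd5a1, Hsd3b5, Hsd17b6, Hsd17b2 and Cyp17a1, and the pair Hsd11b1 and Serpina6, which act on glucocorticoid supply. All 9 were among the 19350 genes with enough reads to be tested. Livers of 12 mice were sequenced. There were 3 Het females and 3 Het males, and 3 KO mice of each sex. Every mouse lacked Csa, a gene of transcription-coupled DNA repair that is mutated in Cockayne syndrome, and every mouse had been given AAV9-CSA into the cerebral ventricles as a newborn. AAV9-CSA is a viral vector that carries a human CSA cDNA under a CBA promoter. The Het mice carried 1 working allele of Xpa, a nucleotide excision repair gene (Csa-/-;Xpa+/-). For the KO mice the design text of the series writes Csa-/-;Xpa+/+, whereas the study describes diseased animals without Xpa, so the groups are called KO and Het throughout. The KO mice were taken at their humane endpoint, with severe hunching and tremor, and the Het mice were littermates of matched age without signs of disease. Genotype therefore cannot be told apart from end-stage illness in these livers. Ages in days and the genetic background were not given in the labels used here.

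Steroid hormones act on the liver through nuclear receptors, proteins that bind the hormone and then bind DNA. The liver is also the main site where steroids are reduced, oxidised and conjugated before excretion. In mice many of these liver genes differ between the sexes, because growth hormone is released in pulses in males and more evenly in females. Testosterone can be converted by 5-alpha-reductase to dihydrotestosterone, a stronger androgen, or oxidised to a weaker one. Glucocorticoids circulate bound to a carrier protein made in hepatocytes and can be regenerated inside the cell from their inactive form. Male-biased and female-biased below mean higher in normal adult males or females as general background, and each was also measured here in the Het livers.

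Single livers are named by group, sex and mouse number, as in Het_F_115. Between 30044812 and 43634073 reads were assigned to genes per liver. Levels are given as CPM, counts per 1e+06 reads after scaling of library sizes, and a gene is called where the edgeR test across all 19350 genes gave an adjusted p under 0.05. Xpa was 1.24 ± 0.298 CPM in the KO livers and 4.71 ± 1.41 CPM in the Het livers (SD, n = 6 each), with no overlap, and fell by 1.83 on the log2 scale (edgeR adjusted p = 4.15e-05). Ercc8, the annotated name of Csa, was 22.9 ± 8.81 CPM in KO and 7.16 ± 1.40 CPM in Het livers (edgeR adjusted p = 0.000156). The annotation is that of the mouse genome, and whether reads of the human cDNA were counted for Ercc8 was not tested.

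The 250 bases before the annotated start are shown for Esr1, Hsd3b5 and Cyp17a1, the members that were called both between the sexes in Het livers and between genotypes in males; they were chosen after their values were seen. They were read from GRCm39 at the start of the canonical GENCODE M39 transcript, from chr10:4659870-4660119 on the plus strand, chr3:98537569-98537818 on the minus strand and chr19:46661612-46661861 on the minus strand. The Esr1 and Hsd3b5 windows lie inside the annotated gene span, which other transcripts extend upstream, and the Cyp17a1 window ends at the edge of the gene. Each is printed 5′ to 3′ toward the start. Capitals mark matches, on either strand, to TTCNNNGAA (a STAT site), TGTTCT (1 arm of the paired element of the glucocorticoid receptor), AGGTCA (1 arm of the paired element of estrogen receptors), TATAAA (the TATA box), TGACCTTTG or CAAAGTCCA (elements of other nuclear receptors).
Esr1: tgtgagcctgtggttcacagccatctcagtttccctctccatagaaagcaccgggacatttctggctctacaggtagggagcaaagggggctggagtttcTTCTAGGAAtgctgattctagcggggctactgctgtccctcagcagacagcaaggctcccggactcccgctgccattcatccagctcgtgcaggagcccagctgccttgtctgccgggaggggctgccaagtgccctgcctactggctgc
Hsd3b5: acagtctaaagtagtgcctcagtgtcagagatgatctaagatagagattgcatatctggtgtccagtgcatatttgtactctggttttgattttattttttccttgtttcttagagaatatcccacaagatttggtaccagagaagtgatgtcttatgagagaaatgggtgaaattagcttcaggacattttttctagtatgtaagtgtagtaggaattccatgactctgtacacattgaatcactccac
Cyp17a1: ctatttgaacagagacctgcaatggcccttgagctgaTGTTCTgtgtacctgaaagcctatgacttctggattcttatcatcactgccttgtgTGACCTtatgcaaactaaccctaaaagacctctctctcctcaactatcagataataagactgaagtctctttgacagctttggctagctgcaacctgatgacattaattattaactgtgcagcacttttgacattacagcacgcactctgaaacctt
The Esr1 window held a TTCNNNGAA match 150 to 142 bases before the start, a match that 7.7% of the 21757 windows of protein-coding genes also held. The Cyp17a1 window held TGTTCT 213 to 208 bases before the start and AGGTCA on the opposite strand 157 to 152 bases before it. Those single arms were found in 14.3% and 13.1% of all windows, and as inverted pairs with 3 bases between in 0.0046% and 0.023%. None of the 3 windows printed held an inverted pair. The Hsd3b5 window held none of the letters searched. TATAAA was in 11.9% of all windows, TGACCTTTG in 0.391% and CAAAGTCCA in 0.372%. A match is a description of the letters, and its absence says only that they are not in this window.

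Over both sexes, 6 of the 9 genes were called between KO and Het livers, against 22.4% of all genes tested. Esr1 and Cyp17a1 rose (12.2% of all genes rose), and Hsd3b5, Hsd17b6, Srd5a1 and Hsd17b2 fell (10.2% of all genes fell). Nr3c1, Hsd11b1 and Serpina6 were not called. The median log2 fold change of the 9 was -0.70, and that of all genes tested was 0.02. In males alone 4 of 9 were called, Esr1 and Cyp17a1 upward and Hsd3b5 and Srd5a1 downward, against 7.45% of all genes. In females alone only Hsd17b6 was called, against 11.0% of all genes. A larger change in males than in females was tested directly as an interaction. By edgeR the interaction was called for 0 of 9 members and for 0.0465% of all genes. An unadjusted p under 0.05 was met by 2 of 9 members and by 1795 of all 19350 genes. DESeq2 called Esr1 and limma called Hsd3b5. The labels do not tie the mice to litters or days.

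**Figure D1:**
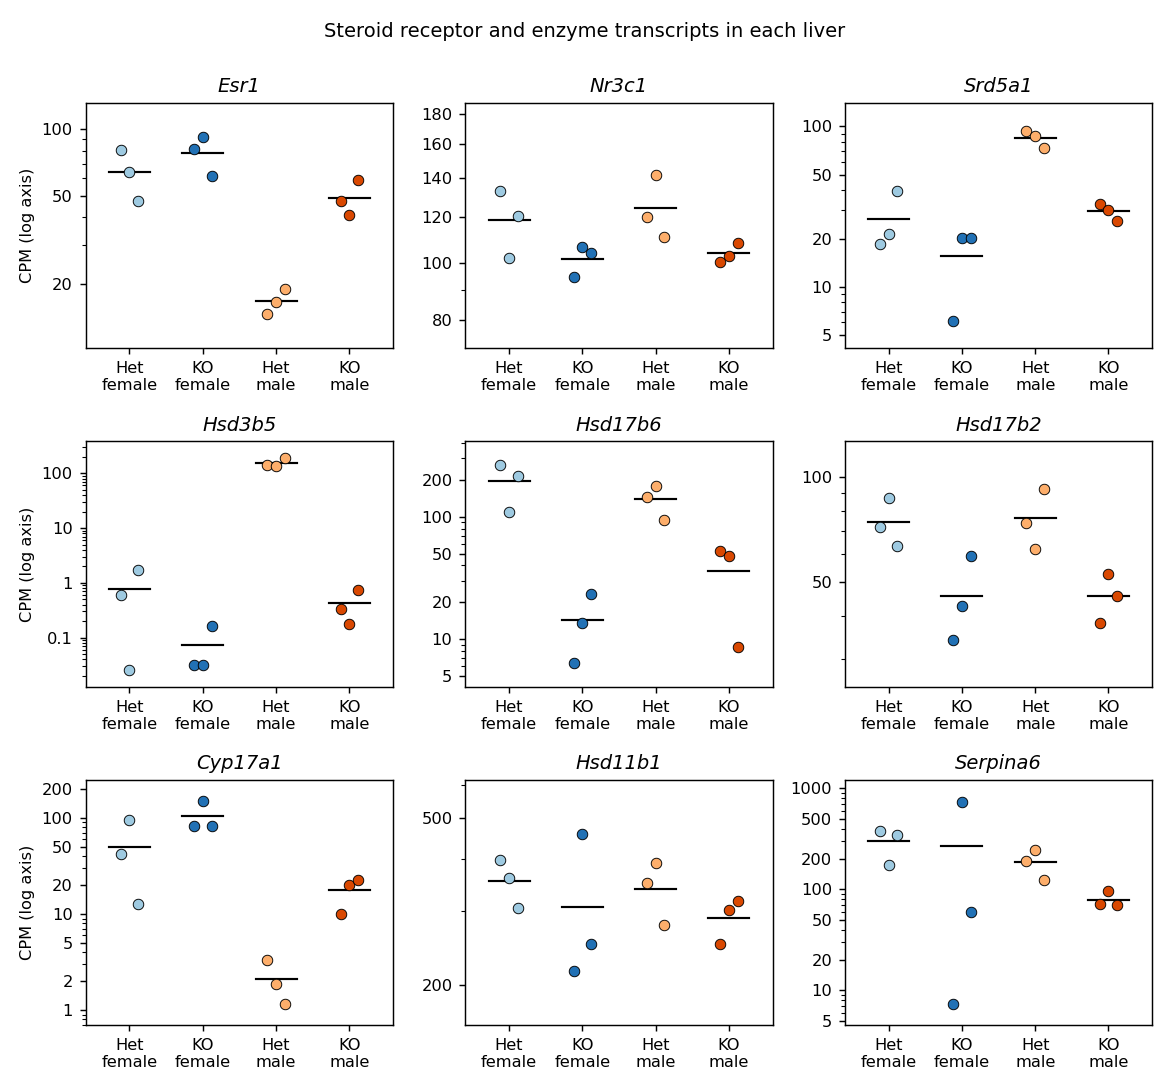
CPM of each of the 9 genes in every liver on log axes, with points for single livers and a bar for the mean of the 3 livers of a group. Het males stand apart from the other groups for Hsd3b5 (134 to 189 CPM, with every other liver at 1.71 CPM or less), Esr1 and Srd5a1. They also stand apart for Cyp17a1 (1.15 to 3.37 CPM, with every other liver at 10.1 CPM or more).

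Esr1 encodes estrogen receptor alpha, the main estrogen receptor of the liver (chromosome 10, 4561593 to 4955626, plus strand). In Het males it was 14.5, 16.5 and 18.97 CPM, and in KO males it was 47.3, 40.8 and 59.0 CPM. The male groups did not overlap, and the mean in KO males was 2.94 times that in Het males (log2 1.55 ± 0.22 SE, edgeR adjusted p = 0.00196). In females Esr1 was 80.3, 64.4 and 47.1 CPM in Het and 81.6, 92.4 and 61.5 CPM in KO livers. The female groups overlapped, and the log2 fold change was 0.30 with an interval of -0.12 to 0.71 (95%, from the standard error by the normal approximation, as for all intervals here). Over both sexes Esr1 rose by 0.93 ± 0.15 on the log2 scale (edgeR adjusted p = 0.00181). The order of the group means was KO females, Het females, KO males and Het males, and neighbours overlapped except KO males and Het males. The male minus female effect was 1.26 ± 0.30 on the log2 scale, with an adjusted p of 0.244 by edgeR and 0.0359 by DESeq2. The genotype call over both sexes and that in males held under all 14 other settings and without any single liver.

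Nr3c1 encodes the glucocorticoid receptor. Its gene lies on chromosome 18, from 39543598 to 39652474 on the minus strand. It was 133, 102 and 121 CPM in Het females, 120.0, 142 and 110.9 CPM in Het males, 94.9, 107 and 104 CPM in KO females and 100.4, 102.9 and 108.5 CPM in KO males. All 12 livers lay between 94.9 and 142 CPM, the KO males below every Het male and the females overlapping. Over both sexes the log2 fold change was -0.24 with an interval of -0.42 to -0.05 (edgeR adjusted p = 0.0883). Without Het_F_115 it was -0.29 and was called (adjusted p = 0.04996). Gm58395, a non-coding gene on the opposite strand, overlaps 496 bases of Nr3c1 exons. The libraries were stranded.

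**Figure D2:**
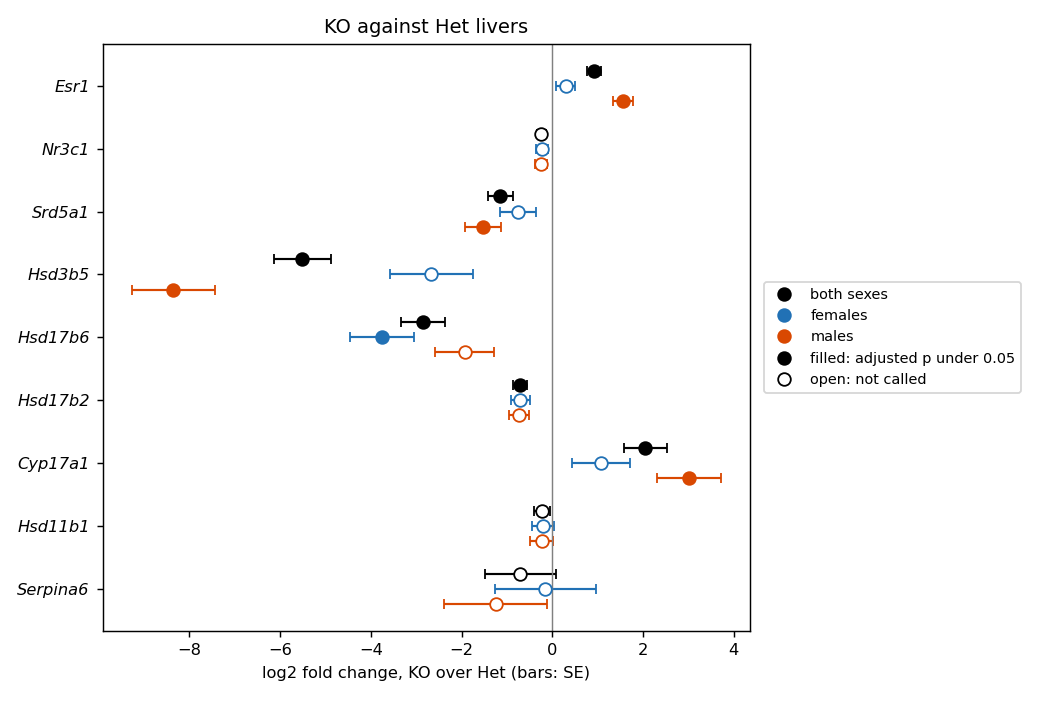
Log2 fold change of KO over Het livers for each gene over both sexes, in females and in males, with bars of 1 SE. Filled points were called by edgeR; the male points of Esr1 (1.55) and Cyp17a1 (3.02) lie to the right and those of Srd5a1 (-1.52) and Hsd3b5 (-8.35) to the left.

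Among 7 tested genes of the other steroid receptors 3 fell and 0 rose over both sexes. By edgeR 10.2% of all genes fell and 12.2% rose. An unadjusted p under 0.05 was met by 4 of the 7 and by 6983 of all 19350 genes. The median log2 fold change of the 7 over both sexes was -0.36. Nr3c2, the mineralocorticoid receptor, fell by 0.90 ± 0.25 on the log2 scale (edgeR adjusted p = 0.0241), and Pgrmc2, a membrane-associated progesterone receptor component, fell by 0.31 (adjusted p = 0.0309). Esrra and Esrrg, receptors related to Esr1 that bind no estrogen, had log2 fold changes of 0.01 and -0.41 and were not called; they were named after their values were seen.

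Receptors of this class are held ready for hormone by chaperones and act through coregulators. Of 15 tested genes of that list 2 rose and 4 fell, with a median of -0.17; the count that rose is near the 12.2% of all genes, and 10.2% of all genes fell. Fkbp5, a cochaperone that lowers glucocorticoid receptor affinity and is itself a glucocorticoid target, rose by 1.22 ± 0.24 over both sexes (edgeR adjusted p = 0.00518). Its levels went from 37.0 ± 11.4 to 105.6 ± 11.4 CPM in males and from 88.3 ± 43.7 to 169 ± 31.7 CPM in females. Fkbp5 was called in males (log2 1.51, edgeR adjusted p = 0.0237). In females 0 of the 15 genes, Fkbp5 included, were called higher, where 5.94% of all genes rose. Fkbp4, a relative of Fkbp5 and a cochaperone that favours receptor activity, fell by 0.90 over both sexes (adjusted p = 0.0111). Stip1, which passes receptors between chaperones, fell by 0.61 (adjusted p = 0.0068), and Ncor1, a corepressor, fell by 0.34 (adjusted p = 0.0104).

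Hsd3b5 encodes a male-biased liver enzyme that reduces 3-ketosteroids such as dihydrotestosterone (chromosome 3, 98525941 to 98553068, minus strand). It was 143, 134 and 189 CPM in Het males and 0.340, 0.175 and 0.754 CPM in KO males, which is 4297, 4134 and 5905 reads against 15.5, 6 and 25.7. The KO males kept 0.272% of the Het male mean. Their log2 fold change was -8.35 ± 0.92 SE (edgeR adjusted p = 8.81e-04). Het females had 0.592, 0.0255 and 1.71 CPM, and KO females had 0.0310, 0.0310 and 0.161 CPM, the equivalent of 1, 1 and 6.1 reads. The females overlapped and were not called (log2 fold change -2.67, interval -4.47 to -0.86, adjusted p = 0.0875). Without Het_F_115, which had 1 read, the female fold change was -3.19 and was called (adjusted p = 0.0183), and DESeq2 called it with all livers (adjusted p = 0.0307). KO males lay within the range of Het females. Over both sexes the log2 fold change was -5.51 ± 0.63 (edgeR adjusted p = 4.57e-04), and that call and the call in males held under every other setting and without any single liver. The filter of 10 reads in every sample removed the gene, so that setting gave no value. The male minus female effect was -5.69 ± 2.14 on the log2 scale, with an adjusted p of 0.484 by edgeR and of 0.0190 by limma on log2(TPM + 0.1).

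Hsd3b5 has near relatives beside it on chromosome 3, and 34.4% of the 31-base words of its transcript also occur in transcripts of other genes, most of all Hsd3b4 and Hsd3b8 (26% each). Reads shared between copies were divided by the authors' estimate, and the count of Hsd3b5 was off a whole number by more than 0.05 in 5 of 12 livers. In TPM, which is scaled for length and compares genes, the levels of Hsd3b5 averaged 74.7 in Het males and 0.217 in KO males. Hsd3b4, Hsd3b8 and Hsd3b9, copies that are scarce in these livers, reached at most 1.24, 1.29 and 0.199 TPM in any KO male. Hsd3b8 and Hsd3b9 were called higher in KO males, opposite to Hsd3b5 (edgeR adjusted p = 0.0438 and 0.0459), with at most 1.23 and 1.80 reads in any Het male and at most 88.7 and 15.9 in any KO male. Hsd3b4 was not called in males (adjusted p = 0.0716). Hsd3b3 averaged 101 TPM in Het males and 43.8 TPM in KO males, and Hsd3b2 averaged 15.5 and 4.63 TPM. Hsd3b2 and Hsd3b3 were called lower over both sexes (log2 -1.59 and -1.19, edgeR adjusted p = 0.0493 and 0.0403), as was Hsd3b7, which acts in bile acid synthesis (log2 -0.89, adjusted p = 0.0153). These relatives of Hsd3b5 were named after their values were seen.

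**Figure D3:**
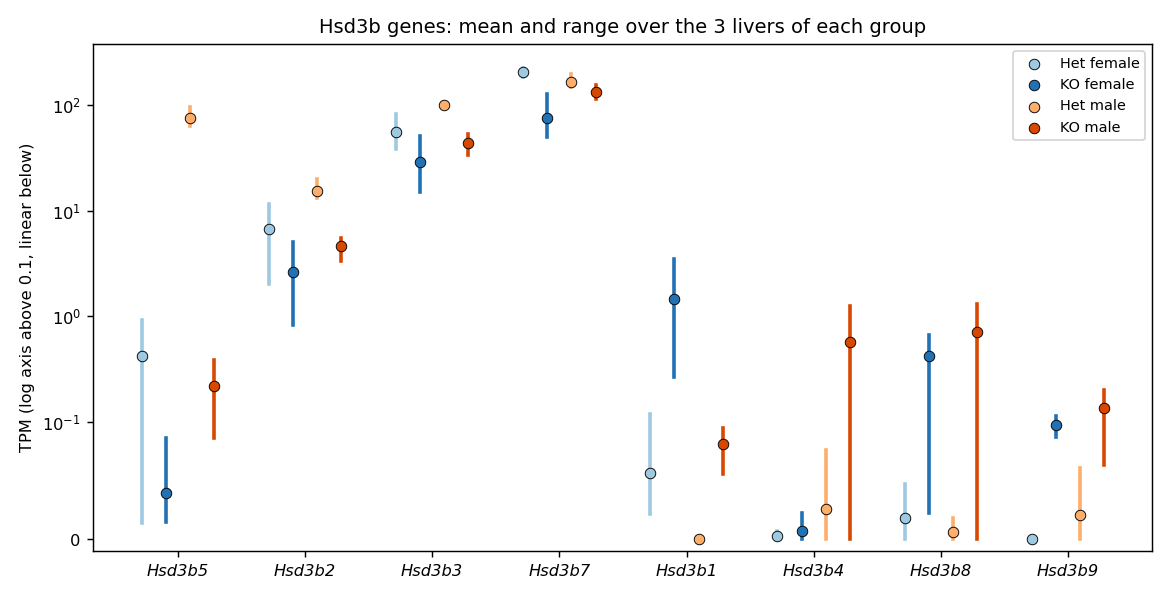
TPM of Hsd3b5 and 7 relatives in the 4 groups, with points for group means and lines from the lowest to the highest of 3 livers; the axis is logarithmic above 0.1 and linear below. Hsd3b5 spans the widest gap between Het males (mean 74.7 TPM) and KO males (0.217 TPM) of the genes drawn.

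Srd5a1 encodes 5-alpha-reductase, which forms dihydrotestosterone and also starts the clearance of glucocorticoids (chromosome 13, 69721568 to 69759750, minus strand). Het males had 94.0, 86.6 and 73.8 CPM and KO males had 32.6, 30.3 and 25.6 CPM. The male groups did not overlap, and KO males held 34.8% of the Het male mean (log2 -1.52 ± 0.40, edgeR adjusted p = 0.0446). That call in males lay near the threshold. It was lost without Het_F_115 (adjusted p = 0.0549), without any of Het_M_119, Het_M_125, Het_M_137, KO_M_118, KO_M_122 or KO_M_136 (adjusted p up to 0.136), and under 6 of 14 other settings, with fold changes of -1.61 to -1.43 without a liver. Het females had 18.5, 21.3 and 39.3 CPM and KO females had 6.17, 20.1 and 20.3 CPM, which overlapped (log2 -0.76, interval -1.54 to 0.01). Over both sexes Srd5a1 fell by 1.14 ± 0.28 (edgeR adjusted p = 0.0162), a call that held under all 14 other settings and without any single liver. Of the 31-base words of its transcript, 22.7% are shared with Gm17108, an overlapping non-coding gene on the same strand, and its counts were not whole in all 12 livers. Srd5a2, the related isozyme, was at or below 1.71 TPM in every liver. It was 1.32 ± 0.191 CPM in Het males and 2.90 ± 0.560 CPM in KO males and rose in males by 1.104 ± 0.28 on the log2 scale (edgeR adjusted p = 0.0348), opposite to Srd5a1, and it was not called over both sexes (adjusted p = 0.0976).

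Hsd17b6 encodes an oxidative enzyme that can turn androstanediol back into dihydrotestosterone (chromosome 10, 127826802 to 127843497, minus strand). Het females had 263, 109 and 215 CPM and KO females had 6.38, 13.6 and 23.3 CPM. Every KO female lay below every Het female, at 7.37% of their mean, with a log2 fold change of -3.75 ± 0.71 SE (edgeR adjusted p = 0.0137). Het males had 144, 177 and 94.6 CPM and KO males had 52.1, 47.6 and 8.70 CPM. These groups did not overlap either, but the log2 fold change of -1.94 was not called by edgeR (interval -3.22 to -0.65, adjusted p = 0.110) and was called by DESeq2 (adjusted p = 0.0092). Over both sexes Hsd17b6 fell by 2.84 ± 0.48 (edgeR adjusted p = 0.00343), the second largest fall of the 9 genes after Hsd3b5. The calls over both sexes and in females held under all 14 other settings and without any single liver. The gene shares 14.4% of its 31-base words with relatives of the Rdh group, and its counts were not whole in 11 of 12 livers.

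Hsd17b2 encodes the enzyme that oxidises estradiol and testosterone to weaker hormones (chromosome 8, 118428254 to 118485774, plus strand). It was 71.6, 87.1 and 63.4 CPM in Het females, 73.5, 62.2 and 92.3 CPM in Het males, 34.2, 42.7 and 59.3 CPM in KO females and 38.2, 52.8 and 45.6 CPM in KO males. No KO value reached the Het range, with the closest pair at 59.3 and 62.2 CPM. Hsd17b2 fell by 0.72 ± 0.15 over both sexes (edgeR adjusted p = 0.00697), and the fitted effects in females (-0.70) and males (-0.74) were of like size. In the fit of all 12 livers neither sex passed by edgeR (adjusted p = 0.0555 and 0.0611), while both did by DESeq2 (adjusted p = 0.0259 and 0.0212). The males were also called by edgeR in a fit of the 6 males alone (adjusted p = 0.0372), and the females by limma on log2(TPM + 1) and log2(TPM + 0.1) (adjusted p = 0.0433 and 0.0397). Without KO_F_123 the female fold change was -0.94 (adjusted p = 0.0168), and without KO_F_108 or KO_F_123 the male one was -0.74 (adjusted p = 0.0355 and 0.0361). Its transcript shared none of its 31-base words with other genes, and its counts were whole.

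Cyp17a1 encodes the enzyme that places the hydroxyl group and cuts the side chain on the way to androgens (chromosome 19, 46655604 to 46661611, minus strand). In Het males it was 3.37, 1.85 and 1.15 CPM, and in KO males it was 10.1, 20.1 and 22.6 CPM. The groups did not overlap, and the KO male mean was 8.30 times the Het male mean (log2 3.02 ± 0.70, edgeR adjusted p = 0.0305). The call in males was lost without Het_M_119, Het_M_125, Het_M_137, KO_M_122 or KO_M_136, at fold changes of 2.73 to 3.50 and adjusted p up to 0.107. It was also lost with no filter on low counts and with limma on log2(TPM + 1). Het females had 42.4, 94.9 and 12.7 CPM and KO females had 83.1, 150 and 83.3 CPM. The females overlapped, with a log2 fold change of 1.08 (interval -0.17 to 2.32). Over both sexes Cyp17a1 rose by 2.05 ± 0.47 (edgeR adjusted p = 0.0135), a call that held under all 14 other settings and without any single liver. The order of the means was KO females, Het females, KO males and Het males, as for Esr1.

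Cyp17a1 is best known from the adrenal and the gonads, so the other marker genes of those tissues were looked at. Cyp11a1, the side-chain cleavage enzyme that starts steroid synthesis, had at most 12 reads in any liver. Cyp11b1 had at most 1.15 reads and Cyp11b2 at most 3. Mc2r, the receptor for the pituitary hormone that drives the adrenal, and Cyp19a1, the enzyme that makes estrogens, were at 0 reads in all 12 livers. Of the 4 tested genes of that list 2 rose and 0 fell in KO livers over both sexes, where 12.2% of all genes rose and 10.2% fell. The 2 that rose were Akr1b7 (log2 4.20, edgeR adjusted p = 5.95e-06) and Hsd3b1 (log2 3.23, adjusted p = 0.0292). The whole list of 11 genes summed to 1.98 to 4.07 CPM in Het livers and 5.83 to 20.7 CPM in KO livers, and its part in the Cyp17a1 values was not tested. In males alone 1 of the 4 rose and 1 fell, where 4.47% of all genes rose and 2.98% fell. The 1 that fell was Cyp21a1 (log2 -2.69, edgeR adjusted p = 0.00855), named after its values were seen.

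Between the sexes, 3 of 9 members were called in Het livers, against 0.920% of all genes. Hsd3b5 was higher in males by 7.52 ± 0.87 on the log2 scale (edgeR adjusted p = 0.0025), a call lost in a fit of the 6 Het livers alone (adjusted p = 0.0619). Esr1 and Cyp17a1 were lower in males by 1.94 ± 0.22 and 4.52 ± 0.74 (log2 -1.94 and -4.52, adjusted p = 0.00122 and 0.0210). Srd5a1 was 3.22 times higher in Het males with no overlap, and its log2 difference of 1.68 was not called by edgeR (adjusted p = 0.0989), though it was without KO_F_108 (adjusted p = 0.00806) and by DESeq2. The Cyp17a1 difference was not called without Het_M_119, Het_M_125 or Het_M_137 (adjusted p = 0.0571, 0.0890 and 0.0928), nor with no filter on low counts (0.0694) or in a fit of the 6 Het livers alone (0.135). Over both genotypes the same 3 genes were called, against 1.02% of all genes. Srd5a1 was not called there by edgeR (log2 1.304, adjusted p = 0.0626), but was without robust estimation (0.0457), by DESeq2 (0.000274), by limma on log2(TPM + 1) (0.0451), and without Het_F_126 (0.0244) or KO_F_108 (0.0253).

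In KO livers 0 of 9 members were called between the sexes by edgeR, against 0.0517% of all genes, and 1, Cyp17a1, was called by DESeq2. An unadjusted p under 0.05 by edgeR was met by 3 of 9 members and by 2445 of all 19350 genes. The differences that remained pointed the same way as in Het livers for Esr1 (log2 -0.68, interval -1.10 to -0.26), Cyp17a1 (-2.58, interval -3.89 to -1.27), Srd5a1 (0.93, interval 0.15 to 1.70) and Hsd3b5 (1.83, interval -0.03 to 3.70). Hsd17b6 was -0.50 in Het and 1.32 in KO livers (interval 0.05 to 2.59). That interval leaves out 0 only through the normal approximation, as the edgeR test gave Hsd17b6 an unadjusted p of 0.0695 (adjusted p = 0.434). A difference called in Het and missed in KO livers is not by itself a change of the sex difference, which is the interaction given above.

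**Figure D4:**
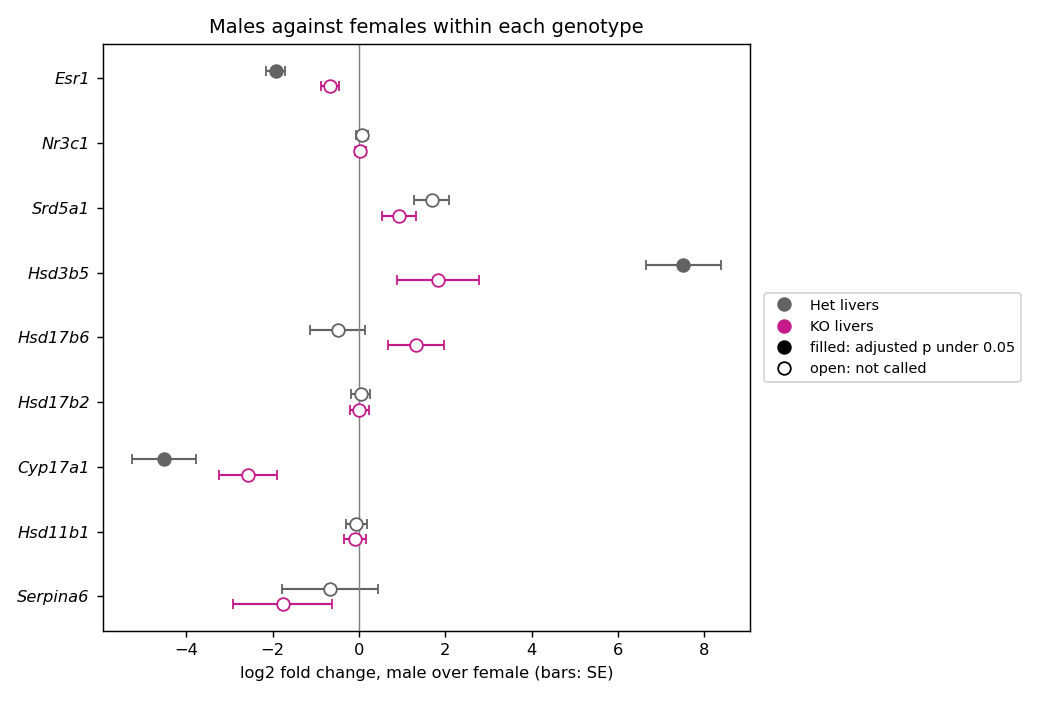
Log2 fold change of males over females for each gene in Het and in KO livers, with bars of 1 SE and filled points where edgeR called the gene. The points of Hsd3b5 (7.52 in Het, 1.83 in KO), Cyp17a1 (-4.52 and -2.58) and Esr1 (-1.94 and -0.68) lie nearer to 0 in KO livers.

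KO males were also set against Het females, a contrast across sex and genotype that was chosen after the data were seen. By edgeR it called 0 of 9 members, with 3 of 9 at an unadjusted p under 0.05 and a smallest adjusted p of 0.0721. The shares of all genes were not counted for this contrast, so these counts have no background to be set against. No other tool was run for the contrast. The intervals of Esr1 (log2 -0.80 to 0.04), Srd5a1 (-0.61 to 0.93) and Hsd3b5 (-2.36 to 0.69) included 0, those of Hsd17b6 (-3.75 to -1.12), Hsd17b2 (-1.12 to -0.28) and Cyp17a1 (-2.76 to -0.24) did not. The intervals are too wide to say that levels were equal.

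Lists of other genes that differ between the sexes in mouse liver were counted beside the members. Of 13 male-biased genes (none a member) 10 were called higher in Het males than Het females, and 8 of 13 fell in KO males, where 2.98% of all genes fell, with a median log2 fold change of -3.03. Cyp2u1 was 92.7 ± 21.1 CPM in Het males and 6.01 ± 1.67 CPM in KO males (log2 -3.93, edgeR adjusted p = 7.57e-06). Cyp7b1, a hydroxylase of oxysterols and of sex steroid precursors, went from 312 ± 67.6 to 41.2 ± 4.37 CPM (log2 -2.92, adjusted p = 0.000844). Ugt2b38, a steroid glucuronosyltransferase gene, went from 33.5 ± 27.5 to 0.106 ± 0.0158 CPM, and Elovl3, a fatty acid elongase, from 57.8 ± 14.7 to 1.11 ± 0.292 CPM. All 4 fell in males. The list also moved in females, where 4 of the 13 were called lower in KO livers and 1 higher, with a median of -1.003. Of all genes 5.10% fell and 5.94% rose in females.

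Of 16 female-biased genes, 1 of which is Cyp17a1, 11 were called lower in Het males than Het females, where 0.460% of all genes were. In KO males 11 of 16 rose, where 4.47% of all genes rose, with a median of 6.06. Cyp2a4, a steroid hydroxylase, was 0.697 ± 0.162 CPM in Het males and 761 ± 306 CPM in KO males (log2 9.98, edgeR adjusted p = 3.01e-06). Cux2, a repressor of male-biased genes that is itself female-biased, went from 0.601 ± 0.202 to 32.9 ± 13.3 CPM in males. Cyp3a44, a steroid hydroxylase, was at 0 to 4.0 reads in Het males and at 355 to 1037 in KO males. In KO females 3 of the 16 were called, 1 upward and 2 downward, where 5.94% of all genes rose and 5.10% fell. The interaction, males minus females, was called higher by edgeR for 3 of the 16, where 0.0362% of all genes were.

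**Figure D5:**
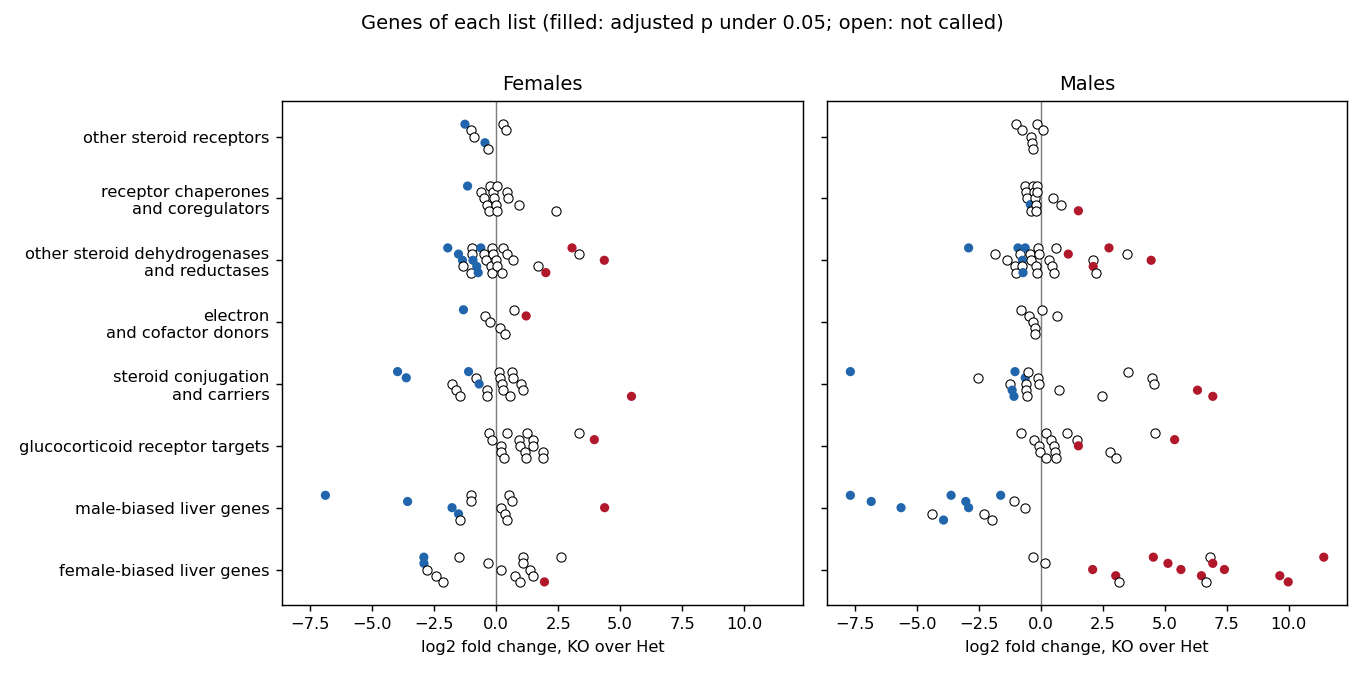
Log2 fold change of KO over Het for every tested gene of 8 lists, in females and males, filled where called by edgeR and open where not. The median of the male-biased genes is -3.03 in males and -1.003 in females, and that of the female-biased genes is 6.06 in males and 0.46 in females.

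The remaining steroid enzymes moved in both directions. A list of dehydrogenases and reductases outside the members also held the hydroxylase Cyp7b1, which is counted among the male-biased genes too. Of its 28 tested genes 5 rose and 11 fell over both sexes, where 12.2% of all genes rose and 10.2% fell. Their median log2 fold change was -0.17. Cyp7b1 fell by 2.22 (edgeR adjusted p = 0.000161), Hsd17b12 by 0.93 (adjusted p = 0.000961) and Akr1c12 by 0.74 (adjusted p = 0.00107). Akr1c18, which inactivates progesterone, rose from at most 5 reads in any Het liver to 16 to 55 reads in the KO livers (adjusted p = 0.000441). Among 7 electron and cofactor donors Por, the reductase that feeds cytochrome P450 enzymes such as Cyp17a1, rose by 0.93 (adjusted p = 0.0156). Cyb5b and Cyb5a, cytochrome b5 forms that also pass electrons, fell by 1.06 and 0.35 (adjusted p = 0.00447 and 0.0375).

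Conjugation makes steroids soluble for excretion. The list counted here holds conjugation and carrier genes and also Sts, Cyp1a2 and Cyp3a11. Of its 20 tested genes 3 rose and 9 fell over both sexes, with a median of -0.21. Of all genes 12.2% rose and 10.2% fell. Ugt2b38, Ugt2b5 and Ugt2b34, glucuronosyltransferases, fell by 4.58, 0.93 and 1.08 (edgeR adjusted p = 0.000193, 0.0012 and 0.00218). Sult2a8, a sulfotransferase, fell by 3.08 (adjusted p = 0.00345). Its relatives Sult2a1 and Sult2a2 went the other way and rose by 4.01 and 3.43 (edgeR adjusted p = 0.0132 and 0.0243). Sult1e1, the estrogen sulfotransferase, named after its values were seen, rose by 5.001 ± 0.95 over both sexes (adjusted p = 0.00601). Its levels went from 2.76 ± 2.10 to 124 ± 53.9 CPM in females and from 2.71 ± 4.53 to 64.3 ± 32.3 CPM in males. In males alone it was not called (log2 4.55, edgeR adjusted p = 0.0688).

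Hsd11b1 encodes the enzyme that regenerates active glucocorticoid inside hepatocytes (chromosome 1, 192903918 to 192946489, minus strand). It was the most abundant of the 9 in TPM in all 4 groups (162 to 216 TPM). It was 398, 359.8 and 304 CPM in Het females, 349.5, 390.4 and 278 CPM in Het males, 216, 457 and 249.6 CPM in KO females and 250.3, 301 and 317 CPM in KO males. The genotypes overlapped in both sexes, and the log2 fold change over both was -0.22 (interval -0.56 to 0.13, edgeR adjusted p = 0.409). KO_F_112 held the highest value of all 12 livers. Without it the fold change was -0.43 and was called (adjusted p = 0.0389).

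Serpina6 encodes corticosteroid-binding globulin, the plasma carrier of glucocorticoids (chromosome 12, 103611821 to 103623752, minus strand). It was 377, 173 and 349 CPM in Het females and 7.34, 742 and 59.0 CPM in KO females. The KO females thus held both the lowest and the highest liver of the series, and KO_F_112 alone had 23980 reads against 237 and 2201 in the others. Het males had 189.8, 248 and 124 CPM and KO males had 71.0, 95.5 and 70.0 CPM, without overlap. Over both sexes the log2 fold change was -0.70 (interval -2.25 to 0.85, edgeR adjusted p = 0.564). Without KO_F_112 it was -2.22 and was called (adjusted p = 0.0167). In females the fold change was -0.15 with all livers, and it ranged from -3.19 to 0.42 when single livers were left out. In males it was -1.25 and was not called in the fit of all 12 livers (adjusted p = 0.553), but was called in a fit of the 6 males alone (adjusted p = 0.0299). For both glucocorticoid supply genes the result over both sexes therefore turned on 1 liver, whose library had the lowest scaling factor of the series (0.885).

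Genes that glucocorticoids are known to induce were counted as a group. Of 17 tested, 2 rose over both sexes, near the 12.2% of all genes that rose, and the median log2 fold change was 0.89. Lcn2, an acute-phase protein that inflammation also induces, rose by 4.68 ± 0.48 (edgeR adjusted p = 2.77e-04), and Fkbp5 is given above. Per1, a clock gene, and Tat, a gluconeogenic enzyme, had log2 fold changes of 1.27 and 0.93 that were not called (adjusted p = 0.0564 and 0.163). Tsc22d3, another such target, had a log2 fold change of 0.25 (adjusted p = 0.613). These 3 were named after their values were seen.

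The pattern of each member over the 12 livers was compared with all tested genes by the root mean square difference of standardised log2 CPM, as a description of likeness over 12 livers. Nearest to Esr1 were Cux2 (0.259), Cyp2c39 (0.282) and Gm44787 (0.282). Nearest to Hsd3b5 were Cyp7b1 (0.195), Mup7 (0.254) and Gm13773 (0.266). Nearest to Cyp17a1 were As3mt (0.212), which lies 34253 bases from it, and the sulfotransferase genes Sult2a2 (0.246) and Sult2a1 (0.246). Nearest to Srd5a1 were Ugt2b1 (0.209), Aldh7a1 (0.213) and C8a (0.249). Nearest to Hsd17b6 were Bcap31 (0.243), Fabp2 (0.243) and Nono (0.253), and nearest to Hsd17b2 were Mlx (0.268), Rpl7l1 (0.269) and Nup155 (0.320). The median distance to all genes was 1.34 to 1.38. Nr3c1 (nearest Or5m11b, Gm45088 and 4732471J01Rik, 0.326 to 0.350), Serpina6 (nearest Tgfb1i1, Prodh2 and B4galt4, 0.417 to 0.423) and Hsd11b1 (nearest Mttp, Fgf1 and Gm49196, 0.447 to 0.496) had more distant neighbours than the other 6.

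Transcript length and cell makeup were looked at beside these levels. The relative effective transcript length (the estimated count divided by TPM, scaled per liver), which shifts when shorter or longer transcripts are used, passed the test for none of the 8 members compared, Hsd3b5 being left out for its few reads (exact permutation test within sex, two-sided, 400 regroupings, smallest adjusted p = 0.66, smallest unadjusted p = 0.1). Of 7 hepatocyte markers 2 fell and 0 rose over both sexes, where 10.2% of all genes fell and 12.2% rose. The 2 were Serpina1c (log2 -1.19, edgeR adjusted p = 7.27e-04) and Ttr (log2 -0.81, adjusted p = 0.00422). The median log2 fold change of the 7 was 0.04 and the highest was 0.57. The list summed to 58400.5 to 78495 CPM in Het and 71831 to 127162 CPM in KO livers. Of 7 Kupffer cell and macrophage markers 4 rose, among them Marco (log2 2.98) and Vsig4 (log2 0.87), where 12.2% of all genes rose. That list summed to 92.0 to 254 CPM in Het and 135.7 to 422 CPM in KO livers. Of 6 sinusoidal endothelium markers 3 fell (198 to 378 CPM in Het and 163 to 259 CPM in KO livers). Of 7 stellate cell and fibroblast markers 2 fell (247 to 451 and 124.7 to 269 CPM), where 10.2% of all genes fell. By edgeR 0 of 5 cholangiocyte markers were called, with 0 at an unadjusted p under 0.05. Of 3 tested neutrophil markers 1 rose, and the 1 tested kidney or pancreas marker fell, against the same 12.2% and 10.2% of all genes. Lists this short give coarse shares. The part of these cell types in the results was not tested, and in whole tissue fewer cells of a type and less RNA per cell cannot be told apart.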

How the data were processed

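Livers of 12 mice were grouped by genotype and sex from the labels. Per the labels and the study's methods, the authors sequenced stranded total RNA depleted of ribosomal RNA, aligned it with STAR 2.7.9a to GRCm39 with GENCODE M34 genes and estimated counts with Salmon 1.10.1. The deposited estimated counts were rounded here (12.0% were not whole). The deposited TPM values served for levels between genes and as alternatives, as did the 2 deposited tables of scaled counts. Genes with at least 5 reads, scaled to the median library, in at least 3 livers were tested with edgeR 4.0.16 in R 4.3.3 (TMM, quasi-likelihood F test, robust estimation, prior count 2, Benjamini-Hochberg). Standard errors were derived from F. The fit was tested on simulated data. DESeq2 1.42.0 and limma 3.58.1 were alternatives, as were other filters, scalings and models and leaving out each liver. Positions came from GENCODE M39, a later release on the same build. Except where the text says otherwise, named genes were the members, Xpa and Ercc8, the 4 called genes of smallest p of each list, and the 3 nearest patterns of each member. The members and lists were chosen with earlier results of these data known. No column outside these mice was used. Replicates are separate mice. Some genes of the lists are counted with their list and not reported singly here.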

Additional observations from a re-analysis of the deposited data

How the results depend on the processing

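The calls over both sexes (6 of 9 members) held under all 14 other settings and without any single liver for each of Esr1, Srd5a1, Hsd17b2, Hsd17b6 and Cyp17a1, and for Hsd3b5 under the 13 settings that gave it a value. Within females the count of 1 called member became 3 with DESeq2 and 2 with limma on log2(TPM + 1) and on log2(TPM + 0.1), and 1 to 2 without single livers. Within males the count of 4 became 6 with DESeq2 (Hsd17b2 and Hsd17b6 gained) and 6 in a fit within the 6 livers (Hsd17b2 and Serpina6 gained), 2 with no filter on low counts, and 2 to 5 without single livers. For the interaction the count of 0 became 1 with DESeq2 and with limma on log2(TPM + 1) and on log2(TPM + 0.1). Between the sexes the Het count of 3 became 1 in a fit within the 6 livers and 4 with DESeq2 or without KO_F_108 (Srd5a1 gained), the count of 3 over both genotypes became 4 with DESeq2, limma on log2(TPM + 1) or no robust estimation, and the KO count of 0 became 1 with DESeq2. The sign of the Serpina6 fold change in females varied from -3.19 to 0.42 without single livers. The relative effective length of Cyp17a1, KO minus Het, was -0.0037 and became 0.0055 without scaling per liver. In each case the cause was not tested. No paired analysis was possible because the labels do not say which mice came from the same litter. Depth limits Hsd3b5, which had as few as 1 read in females.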
